A study of Mus musculus with 12 samples.

Results

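Medullary thymic epithelial cells with high MHC class II (mTEChi) that lack HOIL were compared with control mTEChi across all genes. The comparison used 6 of the 12 libraries of the study, 3 per group, chosen by the cell type and genotype in their labels. The other 6 libraries hold cortical thymic epithelial cells (cTECs) of the same genotypes and are used here to estimate the spread and to test where the effect in mTEChi differed. All mice were C57BL/6. Controls were Foxn1cre+/+ Hoillox/lox mice, which the labels call wild type, and the deleted mice were Foxn1creT/+ HOILlox/lox. Both groups therefore carry the floxed Hoil allele. Foxn1 is active throughout the thymic epithelium, so Cre under its control acts in cortical and medullary cells alike and from early in thymus development. HOIL-deficient replicate 3 was labelled female and the other 5 mTEChi libraries male. Of the cTEC libraries, HOIL-deficient replicate 3 was likewise labelled female and the other 5 male. The ages of the mice were not given in the sources used here. The labels describe a sort by flow cytometry for epithelial cells (EpCAM) without markers of leukocytes (CD45), erythroid cells (TER-119), endothelial cells (CD31) or cTECs (Ly51), and with the lectin UEA1 and high MHC class II. They do not say that replicates came from separate mice, so a p value here reflects how far these samples spread, which may be technical.

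HOIL-1, encoded by Rbck1, joins HOIP (Rnf31) and SHARPIN in LUBAC, the enzyme complex that builds linear ubiquitin chains on signalling proteins of TNF receptor family pathways, including those that lead to NF-kB and those that restrain cell death. In the thymic medulla, RANK, CD40 and the lymphotoxin beta receptor drive mTEC maturation through NF-kB. Mature mTECs show T cells a broad set of proteins of other tissues, some under the control of Aire and Fezf2, and part of the mature population takes on the gene programmes of tuft, keratinized, ciliated, microfold, secretory, neuroendocrine or muscle cells, which are called mimetic cells.

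The control mTEChi libraries, replicates 1 to 3, held 9768040, 9669907 and 8641463 counts, and the HOIL-deficient ones held 10137044, 10706459 and 14274333. Levels below are CPM (counts per 1000000 counts of the library) and are given in the same order of replicates, with the controls first and the HOIL-deficient libraries after the word against. Defining mTEChi markers were high in every library: Epcam, the sort antigen, was at 874, 1018 and 1025 CPM in controls and at 824, 805 and 766 CPM in HOIL-deficient libraries (-0.34, SE 0.12, adjusted p = 0.054). It was called lower under 8 of the 18 alternatives, with DESeq2 at an adjusted p of 0.00083. H2-Aa and Aire are given below. RNA composition differed. The 13 mitochondrially encoded protein-coding genes took 8.06, 3.01 and 4.08% of counts in controls and 1.62, 1.79 and 1.79% in HOIL-deficient libraries, without overlap (2-sided exact permutation p = 0.1, the smallest that 3 against 3 libraries allow). Control replicate 1 was the highest. Genes with a count, after every mTEChi library was thinned to 8641463 counts, numbered 22179, 23350 and 23121 in controls and 21836, 21014 and 21574 in HOIL-deficient libraries, again without overlap (exact permutation p = 0.1). The 100 most abundant genes held 35.7, 29.2 and 30.9% and 25.9, 24.4 and 25.2% of counts (exact permutation p = 0.1). Endothelial genes were higher in the HOIL-deficient libraries although the sort left out CD31, and short genes were more often lower; both are described with their values below.

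Of 19398 tested genes, 3858 were called at an adjusted p under 0.05 by edgeR's quasi-likelihood test, with Benjamini-Hochberg adjustment over all tested genes. That is 19.9% of the tested genes, with 2191 higher (11.3%) and 1667 lower (8.59%) in HOIL-deficient mTEChi. At least 2-fold changes made up 1082 of the higher and 1178 of the lower calls. In 3796 of the called genes the 2 groups of libraries did not overlap. Calling favours such genes, so a lack of overlap in called genes, here and below, is no further support. The median log2 fold change over all tested genes was -0.03. Leaving out control replicate 1 gave 1944 calls and control replicate 3 gave 2279; leaving out HOIL-deficient replicate 1 gave 2558 and replicate 2 gave 2343. With upper-quartile scaling 1708 genes were higher and 1979 lower, and with DESeq2 2207 and 2556, so the balance of directions depends on the scaling. In the rest of the text, a list of genes is described by how many of its tested members were higher or lower, to be read against 11.3% and 8.59%, and by its median log2 fold change, to be read against -0.03. These backgrounds are not matched for level. In the highest decile by mean CPM 26.3% of genes were higher and 12.8% lower, with a median of 0.178. In the lowest decile 1.03% were higher and 3.40% lower, with a median of -0.415.

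The targeted gene Rbck1 (Entrez 24105, chromosome 2, 152316334 to 152332663; all gene positions are RefSeq's for GRCm38.p6) stood at 114, 128 and 108 CPM in controls and at 10.9, 11.7 and 23.3 CPM in the deleted libraries. It was lowered in all 3 HOIL-deficient libraries (log2 change -2.99, SE 0.27, adjusted p = 4.5e-05). Replicate 3 was the highest of them. A gene count covers all exons, and the labels do not give the floxed ones, so the remaining reads do not say how much functional message remained. Of the 11 tested genes for LUBAC, its deubiquitinases and adaptors, 4 were lower and 1 was higher. Otulin, the deubiquitinase that cleaves linear chains, was at 334, 300.2 and 303 CPM in controls and 171, 170.0 and 189.8 CPM in HOIL-deficient libraries (log2 change -0.89, SE 0.16, adjusted p = 0.0027). The groups were far apart for Otulin, with little spread inside either. Rnf31, which encodes the catalytic subunit, was at 37.3, 28.6 and 29.5 CPM against 18.4, 18.6 and 14.6 CPM (log2 change -0.96, SE 0.32, adjusted p = 0.049), a call that ended on leaving out any single mTEChi library (adjusted p 0.063 to 0.17). Tnfaip3, which encodes the ubiquitin editor A20, was at 29.2, 52.7 and 49.4 CPM against 24.2, 30.4 and 23.5 CPM (log2 change -0.80, SE 0.24, adjusted p = 0.032), with overlap between the groups, and was not called without control replicate 2 or 3 or HOIL-deficient replicate 1 or 3 (adjusted p 0.099 to 0.11). Tnip2, an A20-binding adaptor, was the member that rose, from 68.6, 95.1 and 91.9 to 134, 132 and 149 CPM (log2 change 0.64, SE 0.16, adjusted p = 0.014), except without control replicate 1 or HOIL-deficient replicate 3 (adjusted p 0.060 to 0.065). Sharpin was at 37.3, 40.7 and 38.7 CPM against 40.1, 44.6 and 41.3 CPM (adjusted p = 0.88). The count of lower members was 2 without control replicate 2 or 3 or HOIL-deficient replicate 1 or 3.

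Few receptors and kinases upstream of NF-kB were called. Of 24 tested genes of the TNF receptor family and NIK pathway, 2 were higher (8.33%) and 2 lower (8.33%), shares near the background, with a median of -0.01. Tnfrsf11a, which encodes RANK, was at 126, 195 and 155 CPM in controls and 336, 267 and 298 CPM in HOIL-deficient libraries (log2 change 0.87, SE 0.25, adjusted p = 0.028). All 3 HOIL-deficient libraries lay above all controls, but the call ended without control replicate 1 or 3 or HOIL-deficient replicate 1 or 3 (adjusted p 0.068 to 0.13). That call also ended with sex as a term in the model (0.055) and among libraries labelled male (0.066). Birc3, which encodes the ubiquitin ligase cIAP2, was at 140.2, 242 and 197 CPM against 337, 273 and 299.8 CPM (log2 change 0.60, SE 0.17, adjusted p = 0.028) and lost its call without control replicate 1 or 3 or HOIL-deficient replicate 1 or 3 (adjusted p 0.071 to 0.12). Birc3 was also not called with relative-log-expression or upper-quartile scaling (adjusted p 0.053 with both). Nor was it called among libraries labelled male (0.067) or with the trend over gene length removed (0.058). Tab2, the adaptor that links ubiquitin chains to the kinase TAK1, fell from 55.5, 41.5 and 46.4 to 23.7, 17.4 and 20.7 CPM (log2 change -1.29, SE 0.26, adjusted p = 0.0046). That call held under all 18 alternatives. Tnfrsf12a, which encodes the TWEAK receptor, was at 16.7 and 8.81 CPM on average (-0.997, SE 0.31, adjusted p = 0.035) and lost its call without control replicate 1 or 3 or HOIL-deficient replicate 1 or 3 (adjusted p 0.077 to 0.11). Cd40 was at 213, 350.4 and 327 CPM against 390.0, 342 and 420.2 CPM and Ltbr at 39.1, 44.2 and 39.3 CPM against 30.2, 37.5 and 35.9 CPM, with adjusted p values of 0.19 and 0.17 (0.045 for Ltbr with DESeq2). The list's count of higher genes was 0 without control replicate 1 or 3 or HOIL-deficient replicate 1 or 3, and of lower genes 1 without control replicate 1 or 3 or HOIL-deficient replicate 3.

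Among the transcription factors and inhibitors of the pathway, 11 were tested. Relb and Nfkb2, which encode the subunits of the alternative NF-kB dimer, were at 149, 262 and 226 CPM against 272, 186 and 233 CPM and at 249, 287 and 249 CPM against 259, 216 and 283 CPM, with overlapping libraries (adjusted p = 0.88 and 0.82). The 3 called members, all of the IkB family, did not share a direction. Nfkbia, which encodes IkB-alpha (Entrez 18035, chromosome 12, 55489409 to 55492647), was at 1967, 2609 and 2670.1 CPM in controls and 1770.4, 1512 and 1759.5 CPM in HOIL-deficient libraries (log2 change -0.58, SE 0.16, adjusted p = 0.022), and the call ended without control replicate 2 or 3 or HOIL-deficient replicate 2 or 3 (adjusted p 0.054 to 0.095). Nfkbie, which encodes IkB-epsilon, was at 83.8, 159 and 158 CPM against 257, 204 and 246 CPM (log2 change 0.77, SE 0.20, adjusted p = 0.016) and lost its call without control replicate 1 or HOIL-deficient replicate 1 or 3 (adjusted p 0.058 to 0.060). Nfkbiz, which encodes the nuclear protein IkB-zeta, was at 48.2, 50.4 and 47.9 CPM in controls and at 14.6, 19.6 and 21.6 CPM in HOIL-deficient libraries. It fell in each (log2 change -1.46, SE 0.29, adjusted p = 0.0038), and its call held under every alternative. Among libraries labelled male the calls of Nfkbia and Nfkbie also ended (adjusted p 0.067 and 0.054).

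NF-kB target genes were called in both directions. Of 40 tested members, 10 fell (25%, against 8.59% of all genes) and 4 rose (10%, against 11.3%), with a median of -0.20. The count of higher members was 2 without control replicate 1 or HOIL-deficient replicate 3. Of the calls, 7 lower and 2 higher ones held under all 18 alternatives. Cxcl1, a neutrophil-attracting chemokine (Entrez 14825, chromosome 5, 90891245 to 90893121), was at 75.1, 112 and 125 CPM in controls and at 16.7, 11.96 and 26.4 CPM in HOIL-deficient libraries (log2 change -2.56, SE 0.31, adjusted p = 0.00026). Its neighbour Cxcl2, a related chemokine, was at 56.7, 45.7 and 44.8 CPM against 14.2, 11.7 and 20.7 CPM (log2 change -1.73, SE 0.34, adjusted p = 0.0035). Ccl20, the ligand of CCR6, was at 519, 484 and 541 CPM against 161, 138 and 154 CPM (log2 change -1.84, SE 0.39, adjusted p = 0.0055). Ccl5, a T cell chemokine, was at 164, 163 and 207 CPM against 29.2, 37.2 and 62.6 CPM (log2 change -2.12, SE 0.25, adjusted p = 0.00021). In these 4 chemokine genes every HOIL-deficient library was below every control. Csf2, which encodes GM-CSF, fell from 30.3, 32.8 and 37.03 to 5.52, 4.76 and 9.46 CPM (log2 change -2.40, SE 0.40, adjusted p = 0.0015), and the anti-apoptotic Bcl2a1b from 238, 227 and 246 to 101, 86.7 and 120.4 CPM (log2 change -1.27, SE 0.20, adjusted p = 0.0010). Bcl2a1b has near-identical copies, so the counting could have split or moved its reads.

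Of the 4 targets that rose, Birc3 and Nfkbie are given above. Ltb, which encodes lymphotoxin beta, a ligand of the receptor LTBR (Entrez 16994, chromosome 17, 35194507 to 35196305), was at 28.7, 19.6 and 20.1 CPM in controls and at 159, 89.5 and 129 CPM in HOIL-deficient libraries (log2 change 2.38, SE 0.31, adjusted p = 0.00035). The lowest HOIL-deficient library lay above 3 times the highest control. Vcam1, an adhesion molecule that endothelial and stromal cells also express, rose from 200.3, 305 and 274 to 481, 505 and 409 CPM (log2 change 0.79, SE 0.15, adjusted p = 0.0028).

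The stretch before the start of 6 of these genes is shown because they hold the same kind of motif while their RNA moved in different directions. A kB-like motif, GGGNNNTTCC on either strand, was searched in the 250 bases before each RefSeq start. It occurred in 13 of 32 NF-kB target genes with a window (40.6%), against 856 of 14214 tested genes with a window (6.02%). That share describes which genes the list holds, not their change. The motif was in 6 of 9 targets that fell, 2 of 3 that rose and 5 of 20 that were not called. The last 120 bases before the start follow, 5′ to 3′ on the gene's strand in GRCm38.p6, with the motif in capitals. The windows lie at chr5:90891125-90891244 on the plus strand (Cxcl1), chr5:90903779-90903898 on the plus strand (Cxcl2), chr1:83116646-83116765 on the plus strand (Ccl20), chr12:55492648-55492767 on the minus strand (Nfkbia), chr17:35194387-35194506 on the plus strand (Ltb) and chr17:45555580-45555699 on the plus strand (Nfkbie).
Cxcl1: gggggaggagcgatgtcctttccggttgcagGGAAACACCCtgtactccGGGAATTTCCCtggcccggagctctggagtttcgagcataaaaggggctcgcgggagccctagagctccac
Cxcl2: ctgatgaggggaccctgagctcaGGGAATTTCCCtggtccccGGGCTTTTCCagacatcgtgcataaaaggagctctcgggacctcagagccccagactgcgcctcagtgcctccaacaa
Ccl20: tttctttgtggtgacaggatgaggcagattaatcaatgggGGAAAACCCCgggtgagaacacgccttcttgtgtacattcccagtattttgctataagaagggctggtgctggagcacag
Nfkbia: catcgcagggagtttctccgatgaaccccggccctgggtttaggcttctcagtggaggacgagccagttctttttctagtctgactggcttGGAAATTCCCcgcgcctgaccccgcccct
Ltb: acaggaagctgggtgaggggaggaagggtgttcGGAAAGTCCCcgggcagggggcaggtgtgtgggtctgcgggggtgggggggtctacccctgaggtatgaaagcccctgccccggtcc
Nfkbie: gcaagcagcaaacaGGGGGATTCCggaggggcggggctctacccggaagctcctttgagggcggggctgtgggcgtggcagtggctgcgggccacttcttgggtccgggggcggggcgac
Overlapping matches on both strands were joined in the capitals. The first 4 genes were lower and the last 2 higher in HOIL-deficient mTEChi, and a match is a description of the letters, not of binding.

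**Figure D1:**
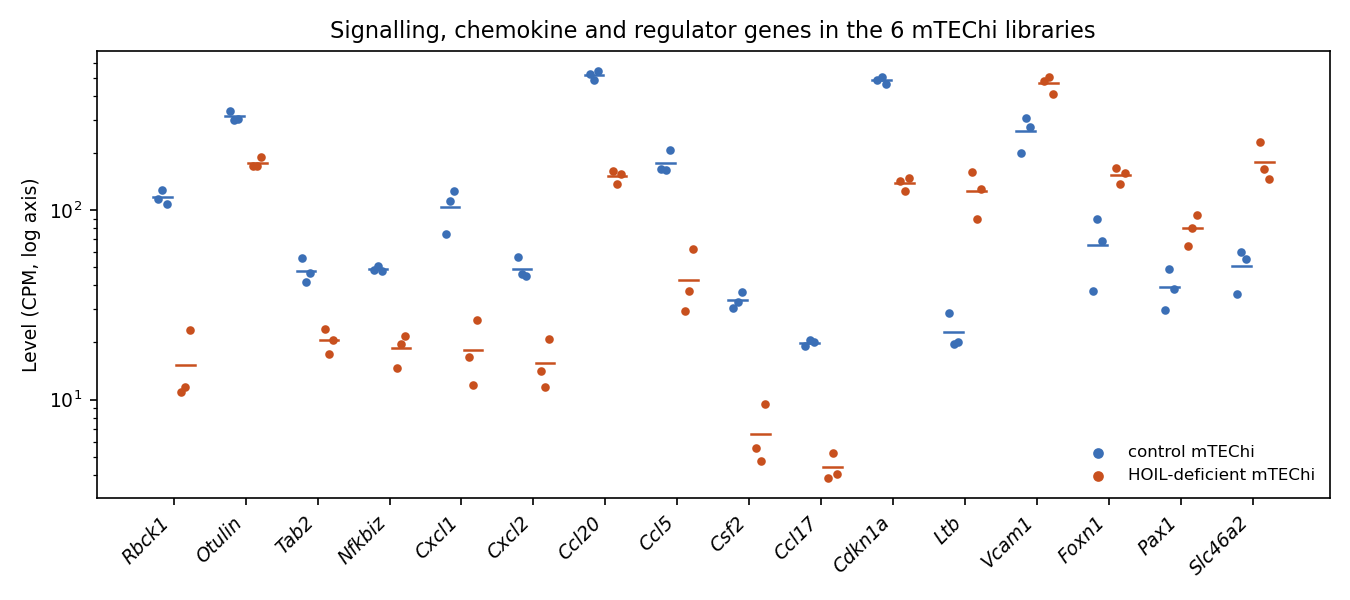
Points are the level of each gene in a single mTEChi library (CPM, log axis), blue for control and orange for HOIL-deficient, with a line at the mean of the 3 libraries. Rbck1, Otulin, Tab2, Nfkbiz, the chemokine genes, Csf2 and Cdkn1a were lower and Ltb, Vcam1, Foxn1, Pax1 and Slc46a2 higher in HOIL-deficient libraries, with no overlap in any of the 16 genes. All 16 were picked from called genes, so the lack of overlap is no further support.

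Genes of cell death were called in both directions. Of 21 death receptor and necroptosis genes, 1 was lower (4.76%) and 1 higher (4.76%), below the background, with a median of 0.14. Zbp1, the nucleic acid sensor that can start necroptosis, fell from 77.4, 63.8 and 75.7 to 39.6, 42.9 and 35.2 CPM (log2 change -0.95, SE 0.21, adjusted p = 0.0069). Casp8, the apical caspase of death receptors, was at 58.8, 59.6 and 63.3 CPM against 83.4, 142 and 106 CPM (log2 change 0.80, SE 0.20, adjusted p = 0.014) and was not called without HOIL-deficient replicate 2 (adjusted p 0.071). Nor was it called with the trend over gene length removed (adjusted p 0.052). Of 19 BCL2 family genes, 4 were lower (21.1%, against 8.59%) and 2 higher (10.5%, against 11.3%), with a median of -0.36. Bcl2l2, which encodes the survival protein BCL-w, fell from 21.4, 17.8 and 19.4 to 4.54, 6.44 and 6.59 CPM (log2 change -1.81, SE 0.34, adjusted p = 0.0031). Bnip3l, a mitophagy receptor, rose from 170.2, 177 and 182 to 344, 373 and 303 CPM (log2 change 0.88, SE 0.15, adjusted p = 0.0017). Among 26 p53 target genes 5 were lower and 2 higher, with a median of -0.02. Cdkn1a, which encodes the cell cycle inhibitor p21 (Entrez 12575, chromosome 17, 29090979 to 29100722), was at 484, 504 and 463 CPM in controls and 143, 126 and 148 CPM in HOIL-deficient libraries (log2 change -1.87, SE 0.23, adjusted p = 0.00030). The antiproliferative Btg2 fell from 200.1, 213 and 209 to 86.02, 98.5 and 119.5 CPM (log2 change -1.10, SE 0.18, adjusted p = 0.0014). Trp53i11 rose from 24.4, 37.4 and 39.8 to 57.1, 78.2 and 89.3 CPM (1.09, adjusted p = 0.0063). The p53 list had a lower count of 3 on leaving out any single control or HOIL-deficient replicate 3 and 2 omitting HOIL-deficient replicate 1 and a higher count of 1 on leaving out any single mTEChi library, and the BCL2 family had a higher count of 1 without control replicate 1 or 3 or HOIL-deficient replicate 3.

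Regulators of mTECs were called in both directions: of 30 tested, 5 were higher (16.7%) and 4 lower (13.3%), with a median of 0.06. Aire was at 577, 969 and 765 CPM in controls and 985, 783 and 1016 CPM in HOIL-deficient libraries, with overlap, and Fezf2 at 311, 393 and 343 CPM against 679.7, 584 and 595 CPM, without overlap. Neither was called (adjusted p = 0.71 and 0.17), but Fezf2 was called higher with limma-voom (0.0071) and in the fit of the 6 mTEChi libraries alone (0.0039). Foxn1, the master regulator of thymic epithelium (Entrez 15218, chromosome 11, 78357577 to 78386783), was at 37.3, 90.2 and 68.6 CPM in controls and 167, 137 and 156 CPM in HOIL-deficient libraries (log2 change 1.19, SE 0.26, adjusted p = 0.0071). Every HOIL-deficient library was above every control. Only the deleted mice carry the cre allele of Foxn1, and the labels do not say how it was built. Pax1, a transcription factor of the thymic primordium, rose from 29.8, 48.9 and 38.4 to 64.8, 80.8 and 94.5 CPM (log2 change 0.98, SE 0.20, adjusted p = 0.0042). Ets1 rose from 15.97, 13.03 and 13.9 to 22.6, 44.1 and 50.2 CPM (log2 change 1.37, SE 0.31, adjusted p = 0.0078). Replicate 1 was the lowest of the HOIL-deficient libraries. Endothelial cells also express Ets1, and the part of endothelial RNA in its rise was not tested. Klf4, a transcription factor of keratinocyte and tuft differentiation, fell from 89.99, 50.5 and 62.8 to 18.2, 30.1 and 20.9 CPM (log2 change -1.64, SE 0.33, adjusted p = 0.0045).

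Keratins and genes of immature thymic epithelium were called in both directions, with 5 of 32 higher and 6 lower and a median of -0.10. The higher count was 1 without control replicate 1, 2 omitting control replicate 2 or HOIL-deficient replicate 1 or 3 and 3 omitting control replicate 3 or HOIL-deficient replicate 2, and the lower count 2 without control replicate 1 or HOIL-deficient replicate 2 and 3 omitting control replicate 2 or 3 or HOIL-deficient replicate 1 or 3. Krt5 was at 169, 122 and 145 CPM against 163, 132 and 124 CPM and Krt14 at 270.4, 282 and 373 CPM against 475, 375 and 367 CPM, with overlap in both (adjusted p = 0.86 and 0.32). The chemokine Ccl21a, a marker of immature mTECs, was at 199, 148 and 186 CPM against 187, 143 and 156 CPM (adjusted p = 0.81). Ly6a, which encodes the surface protein Sca-1, fell from 747, 704 and 743 to 172, 203 and 224 CPM (log2 change -1.94, SE 0.36, adjusted p = 0.0028). Tbata, a gene of thymic stroma, rose from 893, 732 and 695 to 1278, 1476 and 1418 CPM (log2 change 0.77, SE 0.18, adjusted p = 0.0086). Cldn3, a claudin of the mTEC lineage, fell from 113, 171 and 153 to 50.4, 45.5 and 51.4 CPM (log2 change -1.62, SE 0.39, adjusted p = 0.011) and was not called with sex as a term in the model.

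Genes associated with cTECs rose in part: 10 of 27 rose (37%, against 11.3%) and 1 fell, with a median of 0.38. Of the 10 higher calls, 7 held under all 18 alternatives. Slc46a2, a transporter of thymic stroma, was at 36.04, 60.4 and 55.4 CPM in controls and 229, 165 and 146 CPM in HOIL-deficient libraries (log2 change 1.78, SE 0.20, adjusted p = 0.00017). Pltp, a phospholipid transfer protein, rose from 66.2, 91.9 and 81.5 to 262, 229.8 and 196 CPM (log2 change 1.47, SE 0.14, adjusted p = 9.1e-05). Fgf21, a hormone made in thymic epithelium, rose from 229.9, 366 and 356 to 959, 882 and 899.9 CPM (log2 change 1.48, SE 0.22, adjusted p = 0.00081). Cxcl12, the ligand of CXCR4, rose from 38.7, 70.9 and 35.6 to 84.9, 174 and 135 CPM (log2 change 1.39, SE 0.25, adjusted p = 0.0023). All 4 were without overlap between the groups. The defining cTEC genes themselves were not called: Psmb11, the thymoproteasome subunit, was at 71.05, 108 and 54.97 CPM against 87.8, 102 and 114 CPM (adjusted p = 0.28) and the serine protease gene Prss16 at 199, 272 and 144 CPM against 197, 428 and 398 CPM (adjusted p = 0.074; 0.045 and 0.011 omitting control replicate 2 or HOIL-deficient replicate 1). Ly75 and Enpep, which encode the cTEC surface proteins CD205 and Ly51, were at 12.9, 24.6 and 17.4 CPM against 13.7, 19.6 and 26.1 CPM and at 10.6, 18.1 and 13.4 CPM against 13.02, 15.9 and 20.04 CPM, with overlap in both (adjusted p = 0.87 and 0.60). Fewer cells of a type and less RNA per cell cannot be told apart in sorted bulk RNA, here or in the results below.

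Genes of MHC class II presentation were higher where they were called: 5 of 22 rose (22.7%) and none fell, with a median of 0.34. Of all tested genes 11.3% rose, and of the highest decile by level 26.3%. H2-Aa, which encodes a class II alpha chain and by whose protein family the cells were gated, was at 6411, 7832 and 7413 CPM in controls and 11838, 9174 and 10098 CPM in HOIL-deficient libraries (log2 change 0.46, SE 0.13, adjusted p = 0.021), and the call ended without control replicate 1 or 3 or HOIL-deficient replicate 1 or 3 (adjusted p 0.053 to 0.091). H2-Aa was also not called with relative-log-expression or upper-quartile scaling (adjusted p 0.06 and 0.066). Ctsb, a lysosomal protease, rose from 147, 283 and 262 to 405, 414 and 408 CPM (log2 change 0.78, SE 0.19, adjusted p = 0.013). The list's higher count was 2 without control replicate 1 or 3 or HOIL-deficient replicate 1 or 3. Of 23 class I presentation genes, 3 rose and 5 fell (median -0.11), and the members that rose were chaperones of the loading complex while the class I heavy chain and an immunoproteasome subunit fell. Calr, Pdia3 and Canx, which encode calreticulin, ERp57 and calnexin, had log2 changes of 1.39, 1.69 and 0.76 (adjusted p = 0.00021, 5.8e-05 and 0.0023). H2-K1, a class I heavy chain, fell from 5419, 6952 and 6399.7 to 4633, 3604 and 3977 CPM (log2 change -0.68, SE 0.13, adjusted p = 0.0035), and Psmb9, which encodes the subunit LMP2, from 314, 276 and 281 to 169, 181 and 185 CPM (log2 change -0.78, SE 0.14, adjusted p = 0.0023). Without HOIL-deficient replicate 2, 2 members of that list were lower, and 3 without control replicate 3.

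Costimulatory genes were lower where they were called: 4 of 17 fell and none rose, with a median of -0.19. Cd80 was at 10.1, 29.7 and 29.97 CPM against 44.98, 51.00 and 39.9 CPM (adjusted p = 0.13), higher in every HOIL-deficient library and called higher with limma-voom alone (adjusted p = 0.033), with control replicate 1 the lowest. Cd86, the other B7 ligand of CD28, was at 44.3, 76.4 and 67.2 CPM against 33.4, 28.8 and 20.5 CPM (log2 change -1.23, SE 0.38, adjusted p = 0.037), and that call ended on leaving out any single mTEChi library (adjusted p 0.055 to 0.12). It also ended with sex as a term in the model (0.088) and among libraries labelled male (0.14). Cd70, the ligand of CD27, was at 55.9, 62.2 and 71.1 CPM against 32.3, 30.4 and 32.9 CPM (log2 change -1.05, SE 0.25, adjusted p = 0.0099) and Tnfsf9, the ligand of 4-1BB, at 73.1, 107 and 89.1 CPM against 34.4, 40.8 and 49.4 CPM (log2 change -1.17, SE 0.32, adjusted p = 0.022). Cd70 lost its call without control replicate 3 (adjusted p 0.053) and after removal of the length trend, and Tnfsf9 without control replicate 2 or 3 or HOIL-deficient replicate 1 or 2 (adjusted p 0.064 to 0.086). The list's lower count was 2 without control replicate 1 and 1 omitting control replicate 2 or 3 or HOIL-deficient replicate 1 or 2.

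Chemokine and T cell cytokine genes were mostly lower where they were called: 10 of 29 were lower (34.5%, against 8.59%) and 2 higher (6.90%), with a median of -0.32. Their higher count was 1 without control replicate 1 or HOIL-deficient replicate 2 or 3. Besides Ccl5 and Ccl20, the CCR4 ligands fell: Ccl22 from 128, 292 and 243 to 45.2, 33.8 and 65.4 CPM (log2 change -2.24, SE 0.49, adjusted p = 0.0063, not called with DESeq2) and Ccl17 from 19.1, 20.7 and 20.02 to 3.85, 5.23 and 4.06 CPM (log2 change -2.25, SE 0.43, adjusted p = 0.0031). Ccl6, a myeloid chemokine, was at 138, 125 and 127 CPM in controls and 29.4, 40.4 and 15.3 CPM in HOIL-deficient libraries (log2 change -2.26, SE 0.55, adjusted p = 0.012). The part of dendritic cell and macrophage RNA in the falls of Ccl22, Ccl17 and Ccl6 was not tested. Flt3l, a growth factor for dendritic cells, fell from 39.8, 34.95 and 35.4 to 18.2, 13.2 and 20.1 CPM (log2 change -1.17, SE 0.21, adjusted p = 0.0026), and the membrane chemokine Cx3cl1 from 29.3, 45.7 and 34.7 to 11.8, 19.5 and 21.6 CPM (log2 change -1.10, SE 0.23, adjusted p = 0.0052). Il7, the survival cytokine of T cell precursors, was at 62.96, 105 and 98.5 CPM against 138, 155 and 136 CPM (log2 change 0.64, SE 0.18, adjusted p = 0.022) and lost its call without control replicate 1, HOIL-deficient replicate 2 or HOIL-deficient replicate 3. Ccl25, which draws progenitors to the thymus, was at 1364, 1458 and 1310.3 CPM against 1127, 1276 and 1261 CPM (adjusted p = 0.39).

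Of 27 Notch and Wnt genes, 7 fell (25.9%) and 1 rose, with a median of -0.48. The receptor gene Notch1 fell from 50.98, 43.6 and 55.2 to 16.3, 22.4 and 32.6 CPM (log2 change -1.14, SE 0.24, adjusted p = 0.0057) and its effector Hes1 from 20.9, 18.3 and 25.2 to 5.72, 11.3 and 10.8 CPM (log2 change -1.28, SE 0.28, adjusted p = 0.0063). Dll4, the Notch ligand of thymic epithelium, fell from 25.8, 39.7 and 32.6 to 17.1, 17.9 and 14.7 CPM (log2 change -1.04, SE 0.25, adjusted p = 0.010) and was not called with limma-voom or among libraries labelled male. Hey1, another Notch effector and one that endothelial cells express, rose from 10.9, 7.45 and 8.45 to 18.2, 42.03 and 23.8 CPM (log2 change 1.57, SE 0.27, adjusted p = 0.0019). The lower count was 4 without control replicate 1 or HOIL-deficient replicate 1.

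Interferon genes differed by class. Of 39 interferon-stimulated genes, 13 fell (33.3%, against 8.59%) and 2 rose, with a median of -0.67, and 9 of the lower calls held under all 18 alternatives. Isg15, a ubiquitin-like modifier, was at 181, 93.8 and 105 CPM in controls and 19.2, 26.9 and 34.5 CPM in HOIL-deficient libraries (log2 change -2.32, SE 0.32, adjusted p = 0.00053). Its groups did not overlap. Ifit1 fell from 171, 249.6 and 265 to 95.6, 142 and 118 CPM (log2 change -1.001, SE 0.18, adjusted p = 0.0026), Oasl2 from 215, 318 and 319 to 147, 181 and 153 CPM (log2 change -0.88, SE 0.16, adjusted p = 0.0028) and Oas1b from 19.2, 11.1 and 16.8 to 2.86, 3.27 and 5.11 CPM (log2 change -2.14, SE 0.36, adjusted p = 0.0016). Among the 2 members that rose, Ddx58, which encodes the RNA sensor RIG-I, went from 19.1, 23.7 and 24.8 to 35.6, 46.6 and 36.99 CPM (log2 change 0.76, SE 0.18, adjusted p = 0.0094). Of 16 GTPases induced by interferon gamma, 5 were higher (31.2%) and none lower, with a median of 0.44. Gbp4 was at 66.1, 141 and 126 CPM against 188, 274 and 242 CPM (log2 change 1.03, SE 0.28, adjusted p = 0.022) and lost its call without control replicate 1 or 3 or HOIL-deficient replicate 2 or 3 (adjusted p 0.051 to 0.11). The higher count of that list was 0 without control replicate 1, 2 omitting control replicate 3 and 1 omitting HOIL-deficient replicate 2 or 3, and several of its genes are near-identical copies among which reads could be split.

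Genes of other tissues were lower where they were called, in most lists. Of 19 published Aire-dependent antigens, 6 fell (31.6%) and none rose, with a median of -1.17, and of 9 published Fezf2-dependent antigens 4 fell (44.4%) and 1 rose, with a median of -1.16. The first count was 3 without control replicate 1, and the second 2 without control replicate 1. Ins2, which encodes insulin (Entrez 16334, chromosome 7, 142678656 to 142679726), was at 57.02, 34.4 and 41.1 CPM in controls and at 9.37, 5.23 and 10.3 CPM in HOIL-deficient libraries (log2 change -2.49, SE 0.38, adjusted p = 0.00099). All 3 HOIL-deficient libraries were far below all controls. Fabp9, a fatty acid binding protein of testis, fell from 325, 128 and 172 to 29.00, 42.5 and 28.7 CPM (log2 change -2.74, SE 0.37, adjusted p = 0.00049). Control replicate 1 was the highest. Maoa, an amine oxidase and the Fezf2-dependent gene that rose, was at 6.24, 16.4 and 15.6 CPM against 49.9, 44.5 and 58.3 CPM (log2 change 1.95, SE 0.30, adjusted p = 0.0010).

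Of 40 peptide hormone genes, 13 fell (32.5%) and 1 rose (0 without control replicate 1 or 3 or any single HOIL-deficient library), with a median of -0.78, and the lower count was 7 without control replicate 1 or HOIL-deficient replicate 2 and 8 omitting control replicate 3. Iapp, which encodes the islet peptide amylin, fell from 293, 235 and 305 to 97.96, 84.5 and 113 CPM (log2 change -1.57, SE 0.24, adjusted p = 0.0015). Somatostatin, encoded by Sst, fell from 61.8, 41.4 and 54.04 to 13.2, 17.4 and 16.6 CPM (log2 change -1.81, SE 0.28, adjusted p = 0.0025), the gut hormone gene Gip from 102, 81.6 and 84.8 to 36.4, 25.03 and 44.5 CPM (log2 change -1.41, SE 0.28, adjusted p = 0.0048) and the oxytocin gene Oxt from 62.4, 33.8 and 36.5 to 8.19, 7.85 and 15.6 CPM (log2 change -2.15, SE 0.41, adjusted p = 0.0032). All 4 were without overlap, and they are short genes, from 471 to 696 bases. With the trend over gene length removed, 8 hormone genes were lower and the median was -0.43. These 4 and Ins2 kept their calls there.

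Among 34 genes of milk, saliva and seminal fluid, 8 fell (23.5%) and 1 rose, with a median of -1.01; the lower count was 5 without control replicate 1. Dcpp1, a salivary protein with near-identical copies, fell from 83.4, 68.9 and 85.6 to 37.7, 33.8 and 37.4 CPM (log2 change -1.20, SE 0.23, adjusted p = 0.0048), and the airway secretoglobin gene Scgb1a1 from 65.4, 40.7 and 44.2 to 11.7, 13.8 and 20.5 CPM (log2 change -1.79, SE 0.33, adjusted p = 0.0054). Lpo, which encodes lactoperoxidase, rose from 158, 289 and 287 to 684, 573 and 536 CPM (log2 change 1.24, SE 0.26, adjusted p = 0.0052). The casein gene Csn2, among the abundant antigens of these cells, was at 968, 1329 and 1246 CPM against 1120.4, 1174 and 1114 CPM, with overlap (adjusted p = 0.89). Of 40 liver plasma protein genes 5 were lower (12.5%), near the background, with a median of -0.61 and lower counts of 2 without control replicate 1 or HOIL-deficient replicate 1 or 2, 3 omitting control replicate 2 or HOIL-deficient replicate 3 and 1 omitting control replicate 3. With limma-voom 16 were lower and in the fit of the 6 mTEChi libraries alone 12. Of 25 testis and germline genes none was called (edgeR, median -0.14). Of 40 targets of autoimmunity 5 were higher (12.5%) and 2 lower, near the background; the higher count was 3 without control replicate 1, and the lower count 4 without HOIL-deficient replicate 1. In gene families taken by symbol, of 28 tested kallikreins 10 fell (median -1.11), of 20 major urinary protein genes 7 (median -1.91) and of 34 Sprr and Lce genes 11 (median -1.61), with none higher. Reads of these near-identical family members can be split between copies.

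Mimetic cell genes were called lower most often in 4 programmes. In the tuft list, 15 of 32 tested genes fell (46.9%, against 8.59%), none rose and the median was -1.45. In the keratinized list 18 of 47 fell (38.3%, median -1.12), in the ciliated list 14 of 32 (43.8%, median -1.22) and in the gut, microfold and secretory list 25 of 48 (52.1%, median -1.35, with 1 higher and 0 without control replicate 1 or 3 or HOIL-deficient replicate 1). The mean of log2(CPM + 0.5) over the tuft list was 4.55, 4.17 and 4.46 in controls and 2.94, 3.09 and 3.46 in HOIL-deficient libraries. It was 5.003, 5.02 and 5.09 against 4.11, 3.80 and 4.14 for the keratinized list, 3.87, 3.83 and 3.71 against 2.45, 2.40 and 2.95 for the ciliated list and 6.21, 5.997 and 6.02 against 4.78, 4.60 and 5.03 for the gut list. In all 4 lists each HOIL-deficient library was below each control. The single members called depended on the libraries: tuft counts were 5 without control replicate 1, 7 omitting control replicate 3 and 8 omitting HOIL-deficient replicate 1 or 2, keratinized counts 10 without control replicate 1 and 11 omitting HOIL-deficient replicate 2, ciliated counts 6 without control replicate 1 or HOIL-deficient replicate 1 and 7 omitting control replicate 3 or HOIL-deficient replicate 2 and gut counts 16 without control replicate 1. With the length trend removed the 4 counts were 15, 17, 14 and 24.

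**Figure D2:**
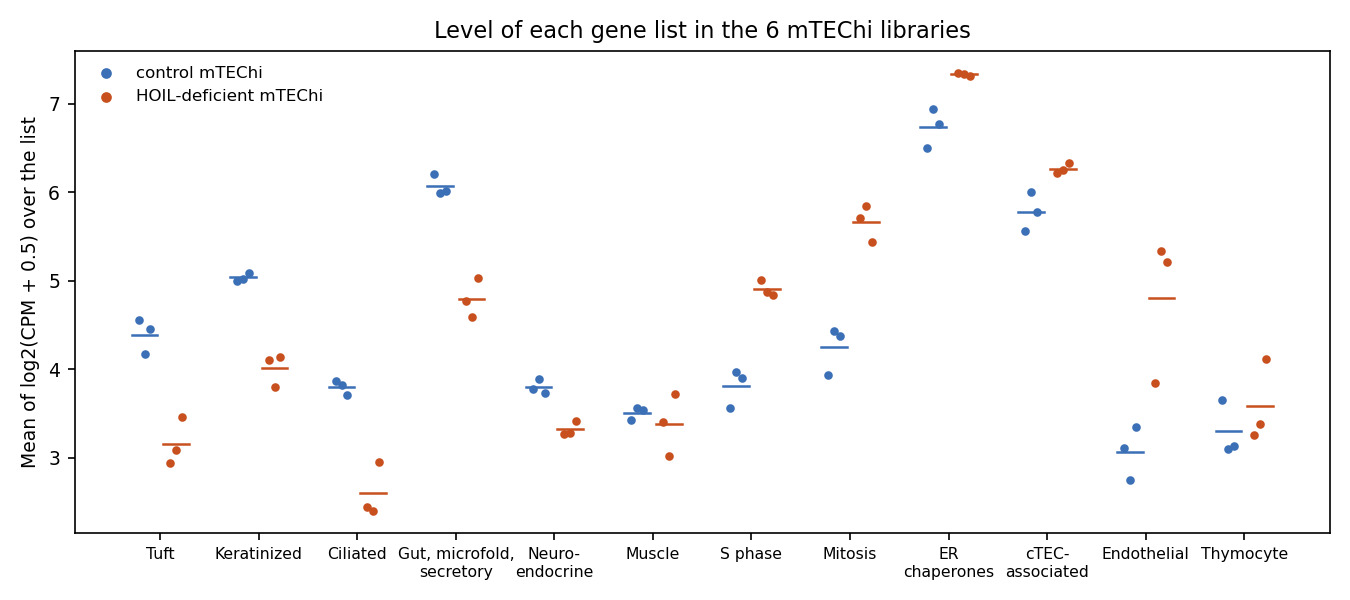
Each point is the mean of log2(CPM + 0.5) over the genes of a list in a single mTEChi library, blue for control and orange for HOIL-deficient, with a line at the group mean. The tuft, keratinized, ciliated, gut and neuroendocrine lists were lower and the S phase, mitosis, ER and cTEC-associated lists higher in each HOIL-deficient library, while muscle and thymocyte levels overlapped and the endothelial level of HOIL-deficient replicate 1 lay between the controls and the other 2.

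In tuft genes, Pou2f3, the transcription factor that specifies tuft cells (Entrez 18988, chromosome 9, 43123927 to 43205755), was at 56.3, 31.9 and 37.8 CPM in controls and 7.60, 12.05 and 15.8 CPM in HOIL-deficient libraries (log2 change -1.91, SE 0.42, adjusted p = 0.0072). Sh2d6 fell from 63.1, 30.1 and 45.6 to 6.41, 8.41 and 16.04 CPM (log2 change -2.25, SE 0.40, adjusted p = 0.0030) and Kctd12 from 167, 142 and 149.9 to 52.3, 74.5 and 60.9 CPM (log2 change -1.36, SE 0.20, adjusted p = 0.00076). Tas2r105, a bitter taste receptor, was at 13.5, 5.998 and 7.64 CPM in controls, with 1 count in replicate 1 and none in the other 2 HOIL-deficient libraries (adjusted p = 0.0021). Trpm5, the taste cation channel, was at 38.3, 22.3 and 26.96 CPM against 6.12, 12.1 and 15.6 CPM (log2 change -1.46, SE 0.42, adjusted p = 0.031) and lost its call without control replicate 1 or 3 or HOIL-deficient replicate 1 or 2. Dclk1, another gene used to mark tuft cells, was at 45.5, 30.6 and 34.1 CPM against 55.4, 37.8 and 41.4 CPM, with overlap (adjusted p = 0.54).

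In keratinized genes, Krtdap, a secreted protein of stratified epithelium, fell from 164, 67.8 and 113 to 12.8, 15.9 and 25.5 CPM (log2 change -2.76, SE 0.34, adjusted p = 0.00028), and Lor, which encodes the cornified envelope protein loricrin, from 30.1, 12.6 and 12.7 to 3.55, 3.74 and 1.61 CPM (log2 change -2.74, SE 0.55, adjusted p = 0.0042). Spink5, an epidermal protease inhibitor, was at 205, 125 and 148 CPM in controls and 13.3, 16.5 and 19.8 CPM in HOIL-deficient libraries (log2 change -3.34, SE 0.53, adjusted p = 0.0012). Krt10, the keratin of differentiating epidermis, fell from 88.2, 33.6 and 33.3 to 7.89, 6.26 and 14.4 CPM (log2 change -2.54, SE 0.42, adjusted p = 0.0014), with control replicate 1 the highest. Sprr2a1, a cornified envelope precursor with near-identical copies, fell from 458, 489.6 and 583 to 102, 60.7 and 123 CPM (log2 change -2.48, SE 0.38, adjusted p = 0.0010).

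In ciliated genes, Dynlrb2, a dynein light chain, fell from 52.6, 20.6 and 27.3 to 1.58, 1.12 and 7.36 CPM (log2 change -3.39, SE 0.67, adjusted p = 0.0039) and Cfap126 from 22.2, 11.3 and 16.8 to 1.87, 2.90 and 3.57 CPM (log2 change -2.67, SE 0.49, adjusted p = 0.0027). Rsph9, a radial spoke protein, fell from 32.8, 32.8 and 33.7 to 14.01, 8.78 and 13.2 CPM (log2 change -1.52, SE 0.26, adjusted p = 0.0016). Sntn, a protein of the ciliary tip, was at 8.39, 3.83 and 3.70 CPM in controls and without a count in the 3 HOIL-deficient libraries. Read against a floor of 3 counts over the HOIL-deficient group (0.0854 CPM), it was at least 62.95-fold lower. Foxj1, the regulator of ciliogenesis, was at 15.5, 7.86 and 3.59 CPM against 1.38, 6.07 and 7.71 CPM, with overlap (adjusted p = 0.51).

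In gut, microfold and secretory genes, Muc13, a membrane mucin, was at 116, 106 and 96.6 CPM in controls and 24.1, 23.4 and 24.7 CPM in HOIL-deficient libraries (log2 change -2.21, SE 0.26, adjusted p = 0.00036), with very little spread inside either group. The antimicrobial lectin gene Reg3b fell from 143, 157 and 155 to 30.5, 46.7 and 35.2 CPM (log2 change -2.08, SE 0.24, adjusted p = 0.00035) and Reg1 from 119, 73.1 and 92.9 to 20.9, 24.4 and 17.9 CPM (log2 change -2.26, SE 0.28, adjusted p = 0.00084). Pigr, the transporter of IgA, fell from 193, 83.1 and 79.6 to 2.96, 1.40 and 11.6 CPM (log2 change -4.54, SE 0.82, adjusted p = 0.0028), and Fcgbp, a mucus protein, from 822, 886 and 845 to 294, 285 and 370.4 CPM (log2 change -1.49, SE 0.28, adjusted p = 0.0030). Gp2, a receptor of microfold cells, was at 236, 319 and 309 CPM against 39.3, 60.4 and 95.6 CPM (log2 change -2.20, SE 0.67, adjusted p = 0.044), but no call remained on leaving out any single mTEChi library. Spib, the transcription factor of microfold cells, was at 151, 186 and 169 CPM against 268, 175 and 259 CPM, with overlap (adjusted p = 0.48).

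Neuroendocrine and muscle genes were called less often than the 4 other lists, a difference that was not tested. The neuroendocrine list level was 3.78, 3.89 and 3.73 in controls and 3.27, 3.28 and 3.42 in HOIL-deficient libraries, also without overlap. Of 30 neuroendocrine genes, 4 fell (13.3%) and 1 rose, with a median of -0.45 and lower counts of 0 without control replicate 1, 1 omitting control replicate 3 or HOIL-deficient replicate 2 or 3 and 2 omitting HOIL-deficient replicate 1. Chga, which encodes chromogranin A, was at 81.3, 69.9 and 62.1 CPM against 39.3, 48.8 and 79.6 CPM (adjusted p = 0.37). Stmn2, a microtubule regulator of neurons, rose from 13.1, 14.7 and 14.6 to 87.99, 59.96 and 78.5 CPM (log2 change 2.36, SE 0.34, adjusted p = 0.00074). Of 34 muscle genes, 2 rose and 2 fell, with a median of -0.30 and a lower count of 1 without control replicate 1 or 3 or any single HOIL-deficient library. Des, which encodes desmin and is also a pericyte gene, rose from 16.7, 19.4 and 14.9 to 86.4, 56.5 and 71.9 CPM (log2 change 2.01, SE 0.39, adjusted p = 0.0033), and Atp2a1, the calcium pump of fast muscle, from 10.3, 14.4 and 11.7 to 57.7, 33.3 and 49.9 CPM (log2 change 1.90, SE 0.33, adjusted p = 0.0019). Myog, the transcription factor of muscle differentiation, was at 18.2, 24.4 and 24.2 CPM against 35.7, 19.9 and 48.3 CPM (adjusted p = 0.27).

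Genes of the cell cycle rose together. Of 32 mitosis genes, 27 rose (84.4%, against 11.3%) and 2 fell, with a median of 1.57, and of 28 S phase genes 16 rose (57.1%), with a median of 1.32 and none lower. Under all 18 alternatives 25 of the 27 and 11 of the 16 held, and the 2 lower members of the mitosis list, which are inhibitors of the cycle, did not. The list level was 3.94, 4.44 and 4.38 in controls and 5.71, 5.85 and 5.44 in HOIL-deficient libraries for mitosis and 3.56, 3.97 and 3.91 against 5.01, 4.87 and 4.84 for S phase, with control replicate 1 the lowest in both. Ccnb2, a mitotic cyclin, was at 11.9, 27.4 and 25.5 CPM in controls and 89.5, 116 and 89.9 CPM in HOIL-deficient libraries (log2 change 2.15, SE 0.32, adjusted p = 0.00090). Cdk1, the mitotic kinase, rose from 37.8, 64.01 and 57.1 to 156, 161 and 145 CPM (log2 change 1.49, SE 0.28, adjusted p = 0.0032), Cdc20, which activates the anaphase-promoting complex, from 13.6, 30.1 and 27.1 to 98.1, 80.05 and 78.7 CPM (log2 change 1.82, SE 0.26, adjusted p = 0.00062) and Kif20a, a cytokinesis kinesin, from 34.4, 38.1 and 32.4 to 86.4, 84.5 and 75.3 CPM (log2 change 1.17, SE 0.15, adjusted p = 0.00034). Foxm1, the transcription factor of mitotic genes, rose from 2.25, 4.45 and 4.74 to 17.5, 12.05 and 14.99 CPM (log2 change 1.91, SE 0.31, adjusted p = 0.0014). In S phase genes, the helicase subunits Mcm3, Mcm4 and Mcm6 had log2 changes of 1.71, 1.57 and 1.74 (adjusted p = 0.0011, 0.00041 and 0.00052), and the loading factor Cdc45 rose from 4.09, 9.51 and 5.90 to 26.4, 30.7 and 22.2 CPM (log2 change 1.98, SE 0.34, adjusted p = 0.0018). Mki67, which encodes Ki-67, was at 48.2, 35.7 and 37.7 CPM against 89.9, 68.9 and 70.9 CPM (log2 change 0.84, SE 0.27, adjusted p = 0.041) and lost its call without control replicate 2 or 3 or any single HOIL-deficient library (adjusted p 0.066 to 0.14). Mki67 was also not called with relative-log-expression or upper-quartile scaling (adjusted p 0.064 and 0.067). Nor was it called with sex as a term in the model (0.074) or among libraries labelled male (0.065). Pcna was at 34.8, 44.4 and 50.7 CPM against 67.9, 66.2 and 67.4 CPM (adjusted p = 0.12), and was called higher in the fit of the 6 mTEChi libraries alone (0.028) and with the length trend removed (0.043). The cyclin-dependent kinase inhibitors of the list, Cdkn1b and Cdkn2a, were at 13.00, 7.96 and 8.91 CPM against 2.96, 4.30 and 3.92 CPM (log2 change -1.50, SE 0.37, adjusted p = 0.014) and at 14.7, 6.62 and 6.83 CPM against 1.28, 1.03 and 0.841 CPM (log2 change -3.25, SE 0.89, adjusted p = 0.021). The first lost its call without control replicate 1 or HOIL-deficient replicate 1, and the second without control replicate 1 or any single HOIL-deficient library.

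Promoter letters of 3 mitosis genes are shown because the CHR motif (cell cycle genes homology region, TTTGAA, either strand) and CCAAT boxes recur in genes of this phase. In the 250 bases before a RefSeq start, TTTGAA occurred in 9 of 25 mitosis genes with a window, all 9 among the 22 that rose, against 14.0% of tested genes. As 22 of the 25 rose, most matches would lie among them in any case. CCAAT occurred in 20 of 25 (80.0%), against 39.7%. Both shares describe which genes the list holds, not their change. The last 120 bases before the start lie at chr4:118437344-118437463 on the minus strand (Cdc20), chr10:69352913-69353032 on the minus strand (Cdk1) and chr19:37376262-37376381 on the plus strand (Kif11), with TTTGAA or its reverse complement in capitals.
Cdc20: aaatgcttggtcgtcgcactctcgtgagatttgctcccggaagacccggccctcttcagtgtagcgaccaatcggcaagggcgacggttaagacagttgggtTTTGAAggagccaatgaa
Cdk1: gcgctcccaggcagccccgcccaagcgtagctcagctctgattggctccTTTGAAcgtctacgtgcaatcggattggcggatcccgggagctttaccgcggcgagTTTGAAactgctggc
Kif11: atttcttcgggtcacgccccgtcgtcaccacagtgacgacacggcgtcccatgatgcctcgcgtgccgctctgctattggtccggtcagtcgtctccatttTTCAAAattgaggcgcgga
Kif11, a spindle kinesin, rose from 7.78, 17.4 and 11.1 to 52.7, 82.1 and 46.9 CPM (log2 change 2.28, SE 0.38, adjusted p = 0.0015).

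Chaperones of the endoplasmic reticulum (ER) rose in a block. Of 28 genes of ER folding and the unfolded protein response, 10 rose (35.7%, against 11.3%), none fell and the median was 0.42. Several are abundant, and 26.3% of the highest decile of genes by level rose. All 10 calls held under every alternative, while with other scalings and DESeq2, and without control replicate 1 or 2, 1 or 2 members were lower. Hspa5, which encodes the chaperone BiP (Entrez 14828, chromosome 2, 34772090 to 34776529), was at 648, 1209 and 1141 CPM in controls and 3049.8, 3016 and 2918 CPM in HOIL-deficient libraries (log2 change 1.54, SE 0.17, adjusted p = 0.00017). The 3 HOIL-deficient libraries were close to each other, and control replicate 1 was the lowest. Pdia6, a disulfide isomerase, rose from 185, 245 and 256 to 832, 821 and 798 CPM (log2 change 1.78, SE 0.13, adjusted p = 1.2e-05), Pdia4, a related isomerase, from 119, 204 and 174 to 458, 461 and 441 CPM (log2 change 1.40, SE 0.16, adjusted p = 0.00018) and Sdf2l1, a cochaperone, from 80.8, 114 and 104 to 266, 260.1 and 268 CPM (log2 change 1.36, SE 0.15, adjusted p = 0.00017). Hsp90b1, which encodes GRP94, rose from 1308, 1297 and 1292 to 2184, 2578 and 2231 CPM (log2 change 0.78, SE 0.12, adjusted p = 0.0010). The transcription factor genes Xbp1, Atf4 and Ddit3 were not called. Xbp1 was at 86.3, 150.3 and 144 CPM against 129, 163 and 141 CPM, with overlap (adjusted p = 0.60). Atf4 was at 201, 153 and 175 CPM against 138, 133 and 134 CPM, lower in each HOIL-deficient library (-0.46, SE 0.16, adjusted p = 0.055), and was called lower under 7 of the 18 alternatives (adjusted p 0.0088 with DESeq2). Ddit3, which encodes CHOP, was at 48.8, 40.3 and 46.2 CPM against 35.5, 34.00 and 32.6 CPM, also without overlap (-0.48, SE 0.19, adjusted p = 0.099), and was called lower with DESeq2 (adjusted p = 0.029). Stt3a, a subunit of the N-glycosylation enzyme in the same compartment, rose from 55.4, 122 and 114 to 302, 355 and 270.0 CPM (log2 change 1.62, SE 0.21, adjusted p = 0.00041).

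The ER stress element, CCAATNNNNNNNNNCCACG on either strand, was found before the start of 10 of 25 genes of this list with a window (40.0%), of which 5 were among the 10 that rose and 5 among the 15 not called. It occurred in 21 of 14214 tested genes (0.148%). The last 120 bases before the start of 3 chaperone genes show it in capitals, at chr2:34771970-34772089 on the plus strand (Hspa5), chr12:17266469-17266588 on the plus strand (Pdia6) and chr10:86705445-86705564 on the minus strand (Hsp90b1).
Hspa5: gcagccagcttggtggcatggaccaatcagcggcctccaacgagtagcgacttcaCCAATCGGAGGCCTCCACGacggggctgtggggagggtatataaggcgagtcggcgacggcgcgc
Pdia6: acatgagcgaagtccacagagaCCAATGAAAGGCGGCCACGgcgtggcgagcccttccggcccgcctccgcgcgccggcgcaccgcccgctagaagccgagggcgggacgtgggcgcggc
Hsp90b1: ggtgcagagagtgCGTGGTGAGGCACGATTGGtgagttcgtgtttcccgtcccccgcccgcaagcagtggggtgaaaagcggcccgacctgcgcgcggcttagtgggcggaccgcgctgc
In Hsp90b1 the element reads on the opposite strand, and the second of its 2 matches lies outside these bases, farther upstream. These letters describe the promoters and do not show that a factor acted on them. The share of the list with the element describes which genes it holds, not their change.

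Metabolic lists were mixed. Of 29 lysosome and autophagy genes, 8 rose (27.6%) and 2 fell, with a median of 0.16. Map1lc3a, an autophagosome protein, rose from 44.5, 55.5 and 51.4 to 150.1, 123 and 149.5 CPM (log2 change 1.42, SE 0.19, adjusted p = 0.00041) and Lamp2, a lysosomal membrane protein, from 236, 318 and 303 to 454, 626 and 521 CPM (log2 change 0.84, SE 0.16, adjusted p = 0.0027). Npc2, a lysosomal cholesterol carrier, fell from 1188, 1103 and 1158 to 713, 699 and 689 CPM (log2 change -0.78, SE 0.14, adjusted p = 0.0027). HOIL-1 has a role in handling abnormal glycogen in muscle. Of 23 glycogen metabolism genes 5 rose (21.7%) and none fell, with a median of 0.24. Gbe1, the glycogen branching enzyme, rose from 16.3, 26.9 and 23.03 to 39.9, 70.3 and 49.5 CPM (log2 change 1.22, SE 0.24, adjusted p = 0.0042) and Pgm1, a phosphoglucomutase, from 44.02, 77.6 and 67.9 to 145, 132 and 135 CPM (log2 change 1.07, SE 0.18, adjusted p = 0.0016). The lysosome list had higher counts of 5 without control replicate 1 or 3 and lower counts of 1 without HOIL-deficient replicate 2, and the glycogen list higher counts of 3 without control replicate 1 or 3.

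Nuclear-encoded and mitochondrially encoded subunits of the respiratory chain were called. All 13 mitochondrially encoded genes fell, with a median of -1.67. COX1 was at 27316, 9272 and 12866 CPM in controls and 5104, 5189 and 5370.4 CPM in HOIL-deficient libraries (log2 change -1.76, SE 0.35, adjusted p = 0.0042), and ND1 at 5880.5, 2635 and 3359.5 CPM against 1217, 1444 and 1333 CPM (log2 change -1.66, SE 0.30, adjusted p = 0.0025). Control replicate 1 was the highest for both. Of 33 nuclear-encoded subunits, 4 rose (12.1%) and 5 fell (15.2%), with a median of -0.19. Atp5b, the beta subunit of ATP synthase, rose from 589, 1245 and 1088 to 2316, 1722 and 1774 CPM (log2 change 0.95, SE 0.20, adjusted p = 0.0058) and Atp5a1, the alpha subunit, from 487, 762 and 704 to 1279, 1108 and 1056 CPM (log2 change 0.77, SE 0.14, adjusted p = 0.0028). Ndufa9 and Uqcrc2, of complexes I and III, were the other 2 that rose (0.62 and 0.67). Those that fell were short genes, Cox8a, Ndufa4, Cox6c, Ndufa2 and Cox4i1, with lengths of 492 to 679 bases. Cox8a, a subunit of cytochrome c oxidase, fell from 565, 307 and 422 to 192, 144 and 289.5 CPM (log2 change -1.13, SE 0.29, adjusted p = 0.016) and Ndufa4 from 539.5, 363 and 407 to 233, 185 and 326 CPM (log2 change -0.89, SE 0.23, adjusted p = 0.016). Cox6c, Ndufa2 and Cox4i1 had log2 changes of -1.15, -1.08 and -0.67. The lower count was 0 without control replicate 1 or HOIL-deficient replicate 1 or 2, 11 omitting control replicate 2 or HOIL-deficient replicate 3 and 3 omitting control replicate 3. It was 9 with relative-log-expression or upper-quartile scaling or the replicate block, 13 with DESeq2 and 10 among libraries labelled male. With the length trend removed none was lower and 9 were higher. Malat1, a nuclear RNA (Entrez 72289, chromosome 19, 5795690 to 5802672), was at 51319, 32896 and 39722 CPM in controls and 7128, 8584 and 9827 CPM in HOIL-deficient libraries (log2 change -2.36, SE 0.25, adjusted p = 0.00016), and Neat1, the scaffold of paraspeckles, at 919, 437 and 481 CPM against 169, 142 and 193 CPM (log2 change -1.96, SE 0.31, adjusted p = 0.0011). Of 27 immediate early and heat shock genes, which also respond to tissue dissociation, 5 fell (18.5%) and 2 rose, with a median of -0.61. Jund fell from 384, 456 and 514 to 167, 209 and 215 CPM (log2 change -1.26, SE 0.20, adjusted p = 0.0010) and Fosb from 20.4, 20.4 and 31.9 to 4.34, 4.20 and 6.80 CPM (log2 change -2.30, SE 0.45, adjusted p = 0.0036). Fos was at 260.1, 378 and 405 CPM against 167, 228 and 206 CPM (adjusted p = 0.084) and was called lower with DESeq2 (0.027) and in the fit of the 6 mTEChi libraries alone (0.0067). The lower count was 3 without control replicate 1. Of 8 nuclear long noncoding RNAs 4 fell and none rose (median -0.85), with a count of 2 without control replicate 1 or 2 or HOIL-deficient replicate 1. Of 42 cytosolic ribosomal protein genes 1 fell and none rose (median -0.28), and 0 to 2 fell without single libraries.

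**Figure D3:**
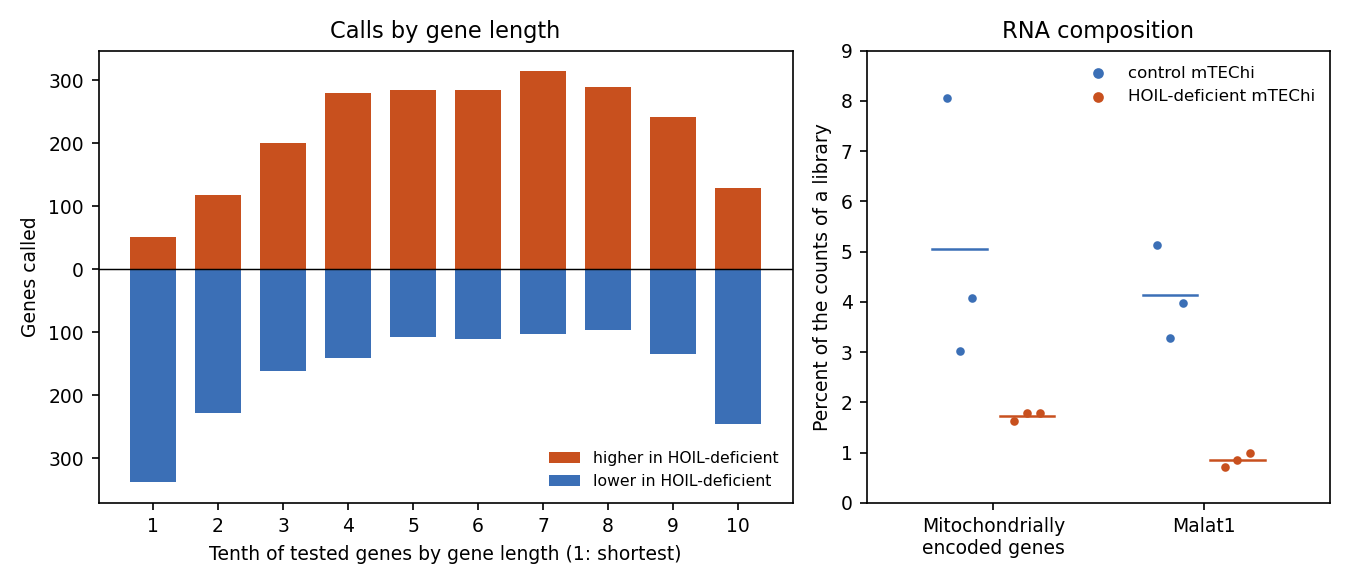
Left, bars give the number of tested genes called higher (up, orange) and lower (down, blue) in each decile of gene length, from 51 and 338 in the shortest decile to 314 and 102 in the seventh decile. Right, points give the percent of counts of each library from mitochondrially encoded genes and from Malat1, with lines at group means, and controls lie above HOIL-deficient libraries in both.

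Calls followed gene length. In the shortest decile of tested genes, 38 to 819 bases long, 51 were higher and 338 lower, with a median of -0.53. In the seventh decile, 2963 to 3550 bases, 314 were higher and 102 lower (median 0.19), and in the longest decile 129 and 246 (median -0.23). With a trend over log gene length removed from each library, 3688 genes were called, 2112 higher and 1576 lower, and 3128 of them were shared with the 3858. Of the antigen lists, hormones are given above, and the Aire-dependent list then had 4 lower members (median -0.73). Calls also followed level: higher calls made up 1.03% of the lowest decile by mean CPM and 26.3% of the highest, and lower calls 3.40% and 12.8%. A fit without the mitochondrially encoded genes, Malat1 and Neat1 called 3748 genes, 2067 higher and 1681 lower, and 3715 of them were shared with the 3858. The part of length and of RNA composition in the single results was not tested beyond these alternatives.

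Markers of other cells were read because a sort can leave some of them behind. Of the 12 genes of the sort gate, 3 rose and none fell (median 0.40; 1 without control replicate 1 or 3 or HOIL-deficient replicate 1 or 3 were higher), among them H2-Aa and Pecam1. With relative-log-expression or upper-quartile scaling 1 member was higher and 1 lower, and with limma-voom 5 were higher and 1 lower. Of 20 endothelial genes, 13 rose (65%) and none fell, with a median of 2.15; together they took 0.0192 to 0.0259% of counts in controls and 0.0397 to 0.104% in HOIL-deficient libraries. Pecam1, which encodes CD31, the antigen the sort left out, was at 12.1, 7.65 and 13.7 CPM in controls and 34.1, 116 and 98.4 CPM in HOIL-deficient libraries (log2 change 2.82, SE 0.46, adjusted p = 0.0014). Kdr, a VEGF receptor, was at 5.22, 2.17 and 3.59 CPM against 9.77, 43.99 and 39.7 CPM (log2 change 2.99, SE 0.61, adjusted p = 0.0046), and Cdh5, which encodes VE-cadherin, at 10.95, 3.10 and 4.40 CPM against 6.61, 39.5 and 24.2 CPM, with overlap (adjusted p = 0.10). HOIL-deficient replicates 2 and 3 were the high libraries and replicate 1 lay nearer the controls. Without control replicate 2 the count was 8. No defining endothelial marker was at 0 in any library. By the selection given with the processing, the 12 largest increases among genes with a mean of at least 10 CPM were Clec14a, Cd36, Lrg1, Matn2, Cav1, Jam2, Cd300lg, Cavin2, Emcn, Cyp4b1, Glycam1 and Aplnr, with log2 changes from 3.07 to 3.96. Most of them are endothelial genes. Calls were lost without control replicate 1 in Cd36, Cav1, Cd300lg, Cavin2, Emcn, Cyp4b1, Glycam1 and Aplnr. Glycam1, high in HOIL-deficient replicate 1 alone, lost its call under 12 of the 18 alternatives, among them DESeq2 and the fit without that library (adjusted p 0.21 and 0.41). Cd300lg and Aplnr lost theirs under 5 each, Cd36, Cavin2 and Emcn also without control replicate 2, and Jam2 with limma-voom (0.068). Clec14a, an endothelial surface protein, rose from 0.921, 0.310 and 2.89 to 9.08, 31.01 and 26.5 CPM (log2 change 3.96, SE 0.64, adjusted p = 0.0013). Matn2, an extracellular matrix protein, was at 3.69, 5.89 and 5.09 CPM in controls and 68.8, 44.4 and 69.6 CPM in HOIL-deficient libraries (log2 change 3.58, SE 0.32, adjusted p = 4.4e-05), with replicate 1 as high as replicate 3. Lrg1, a secreted glycoprotein, rose from 4.09, 1.03 and 3.12 to 32.4, 38.9 and 48.7 CPM (log2 change 3.77, SE 0.50, adjusted p = 0.00041).

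Of 25 fibroblast and pericyte genes 7 rose (28%) and none fell, with a median of 0.89; they held 0.0625 to 0.0688% of counts in controls and 0.135 to 0.174% in HOIL-deficient libraries, and the higher count was 4 without control replicate 1 and 3 omitting control replicate 2. Myh11, a smooth muscle myosin, rose from 61.3, 64.01 and 57.1 to 208, 201 and 157 CPM (log2 change 1.57, SE 0.25, adjusted p = 0.0013) and Vim, which encodes vimentin, from 112, 95.8 and 95.8 to 400.1, 386 and 301 CPM (log2 change 1.77, SE 0.29, adjusted p = 0.0014). The fibroblast genes Pdgfra and Col1a1 were at 0.717, 1.45 and 1.39 CPM against 0.691, 4.02 and 0 CPM and at 12.8, 28.96 and 27.9 CPM against 25.4, 26.1 and 29.4 CPM, not called. Of 17 adipocyte and Schwann cell genes 5 rose and none fell (median 0.76), taking 0.110 to 0.215% against 0.137 to 0.176% of counts. Cdh19, a cadherin of Schwann cells, was at 0, 0.310 and 0.463 CPM against 10.2, 13.4 and 4.55 CPM (log2 change 5.10, SE 0.70, adjusted p = 0.00049). Thymocyte genes were not called in any of 27 members (median 0.38, 0.0330 to 0.0464% against 0.0397 to 0.0659% of counts), with Cd3e at 6.96, 4.86 and 4.51 CPM against 6.91, 8.22 and 15.6 CPM and Ptcra at 1.64, 2.07 and 1.97 CPM against 5.03, 1.96 and 4.06 CPM. No gene of 14 B and plasma cell genes (0.0184 to 0.0217% against 0.0192 to 0.0219%) or of 8 erythroid genes (0.0424 to 0.138% against 0.0448 to 0.156%) was called by edgeR. Of defining markers, Cdh19 was at 0 in control replicate 1 and Pdgfra at 0 in HOIL-deficient replicate 3. Of 20 dendritic cell and macrophage genes 2 fell (median -0.27), with 0.106 to 0.148% against 0.106 to 0.133% of counts. The count was 1 without control replicate 1 or 3 or any single HOIL-deficient library. Their list level was 3.83, 4.13 and 4.03 in controls and 3.695, 3.62 and 3.78 in HOIL-deficient libraries, lower in each of the latter. The part of endothelial, perivascular, Schwann, dendritic cell and macrophage RNA in the other results was not tested.

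By the same selection, the 12 largest decreases among genes with a mean of at least 10 CPM were Tmem212, Pigr, Spink1, Ccdc153, Klk1b16, Fam183b, Dynlrb2, Smim6, Spink5, Wfdc18, Dapl1 and Psapl1, with log2 changes from -6.71 to -3.24. Their calls held under every alternative except that of Fam183b, which ended without control replicate 1 or 3 or HOIL-deficient replicate 1 and with DESeq2. Tmem212, a gene of ciliated epithelium, was at 28.9, 12.4 and 19.7 CPM in controls and 0, 0.280 and 0.280 CPM in HOIL-deficient libraries (-6.71, adjusted p = 0.00055). Ccdc153, another gene of motile cilia, fell from 34.4, 16.03 and 19.3 to 0.888, 0.560 and 2.87 CPM (log2 change -4.05, SE 0.63, adjusted p = 0.0010) and Klk1b16, a kallikrein with near-identical copies, from 116, 144 and 115 to 9.47, 10.2 and 13.9 CPM (log2 change -3.54, SE 0.37, adjusted p = 0.00021). Spink1, a protease inhibitor of pancreas and gut, fell from 218, 64.5 and 87.02 to 4.44, 5.04 and 9.46 CPM (log2 change -4.38, SE 0.61, adjusted p = 0.00086), with control replicate 1 the highest. Among genes with a mean of at least 200 CPM, Wfdc18 fell from 1644, 570.2 and 902 to 113, 94.6 and 144 CPM (log2 change -3.25, SE 0.44, adjusted p = 0.00049), the acute phase gene Saa3 from 1985, 639.6 and 866 to 110.2, 107 and 212 CPM (log2 change -3.13, SE 0.64, adjusted p = 0.0063) and AW112010, a transcript induced by interferon, from 1662, 1362 and 1391 to 211, 213 and 283 CPM (log2 change -2.72, SE 0.18, adjusted p = 1.1e-05). AW112010 had little spread inside either group. Genes with a mean of at least 200 CPM were taken by the same selection. The largest increases at that level, apart from those already given, were Msn, which encodes the membrane linker moesin, from 99.5, 220.2 and 172 to 688, 491 and 615 CPM (log2 change 1.82, SE 0.22, adjusted p = 0.00026), Maged1 from 81.3, 148 and 143 to 457, 414 and 373 CPM (log2 change 1.69, SE 0.20, adjusted p = 0.00021) and the microtubule regulator Stmn1 from 99.9, 103 and 109.8 to 365, 365 and 279 CPM (log2 change 1.63, SE 0.32, adjusted p = 0.0041). Cd36 and Cav1, which endothelial cells express strongly, were at 21.1, 12.8 and 43.4 CPM against 75.6, 716 and 334 CPM and at 10.6, 10.96 and 29.97 CPM against 46.9, 394 and 163 CPM (log2 changes 3.79 and 3.49, adjusted p = 0.015 and 0.0092), with HOIL-deficient replicate 1 the lowest of its group. Cd36 was not called without control replicate 1 or 2 (adjusted p 0.054 to 0.061), nor Cav1 without control replicate 1 (adjusted p 0.052).

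The effect in mTEChi was tested against that in cTECs as a difference of log2 changes in the same fit (mTEChi minus cTEC). It passed for 1908 of 19398 genes (9.84%), and for 1092 of the 3858 genes called in mTEChi. The 2 effects rest on separate control libraries. The fit did not pair mTEChi and cTEC libraries of the same replicate number. For Rbck1 the difference was 0.14, SE 0.36, adjusted p = 0.88. In the cell cycle lists, 16 of 32 mitosis and 10 of 28 S phase genes passed: the difference was 2.34, SE 0.42, adjusted p = 0.0059 for Foxm1, whose own change in cTECs was -0.43, adjusted p = 0.37, and 1.55, SE 0.33, adjusted p = 0.012 for Mcm6, whose own change in cTECs was 0.19, adjusted p = 0.67. Of the cTEC-associated list 15 of 27 passed; for Prss16 the change in cTECs was -1.32, adjusted p = 0.0045 and the difference 1.99, SE 0.35, adjusted p = 0.0055. Foxn1 was -0.61, adjusted p = 0.14 in cTECs, a difference of 1.80, SE 0.37, adjusted p = 0.0099. Among signalling genes the difference was -3.18, SE 0.44, adjusted p = 0.0014 for Cxcl1, -2.39, SE 0.38, adjusted p = 0.0029 for Ccl5, 3.35, SE 0.44, adjusted p = 0.0013 for Ltb and -1.55, SE 0.32, adjusted p = 0.011 for Cdkn1a, whose changes in cTECs had adjusted p values of 0.22, 0.60, 0.066 and 0.42. Of the ER list 6 of 28 passed. Hspa5 and Pdia6 rose in cTECs too (log2 changes 0.84, adjusted p = 0.0051, and 1.05, adjusted p = 0.00033), and the difference was 0.69, SE 0.23, adjusted p = 0.071 for Hspa5 and 0.73, SE 0.18, adjusted p = 0.023 for Pdia6. In the tuft, keratinized, ciliated and gut lists 6 of 32, 10 of 47, 6 of 32 and 1 of 48 passed, and a difference that misses the threshold does not show that the 2 effects were alike. For Krtdap the difference was -4.21, SE 0.59, adjusted p = 0.0015. It passed for 12 of the 13 mitochondrially encoded genes, and for Malat1 it was -2.16, SE 0.34, adjusted p = 0.0029.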

How the data were processed

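RNA of sorted mouse cells was amplified with the SMART-Seq v4 low input kit, made into Nextera XT libraries and sequenced as 75-base read pairs on a NextSeq instrument, per the labels' protocols. The authors deposited 1 table per library of raw counts of reads per gene (Entrez gene IDs), made with featureCounts on mm10, per the submitters' processing notes. Aligner, annotation release, versions and use of strand: not given in the sources used here. Antisense and overlapping genes can therefore not be told apart. SMART-Seq libraries carry no molecular identifiers, so counts are of amplified fragments. Of 27179 IDs, 25275 matched a RefSeq symbol; the rest held 5.07 to 6.10% of counts in mTEChi libraries, and no row other than a gene ID was present.

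Counts were tested with edgeR 4.0.16 (R 4.3.3): filterByExpr, TMM scaling, 1 coefficient for each of 4 groups of 12 libraries, robust quasi-likelihood F test and Benjamini-Hochberg adjustment over 19398 genes, called at an adjusted p under 0.05. The standard error was the log2 change divided by the square root of F. The test was first checked on simulated counts. CPM is counts per 1000000 counts of the library; a list level used log2(CPM + 0.5). A single value was compared by a 2-sided exact permutation test (scipy 1.17.1). Positions and promoter sequences are RefSeq's for GRCm38.p6, and 14214 tested genes had a promoter window. Gene lengths are those given with the deposited counts. Alternatives used limma 3.58.1 and DESeq2 1.42.0. With 3 libraries per group, precision is limited by their number; total counts per library ran from 8641463 to 14274333 in mTEChi.

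The text names LUBAC genes, mTEC and cTEC markers set by hand, the largest changes among called genes without overlap between the groups (12 per direction at a mean of at least 10 CPM, 8 per direction at 200 CPM or more), and, from each list, up to 5 called members ranked by p. The ranking by change left out Y-linked genes, Xist, Tsix, pseudogenes, genes without a symbol and symbols of the Gm, LOC, Rik, AA or BC kind. Other named genes, among them Cxcl2, Ccl20, Ccl22, Ccl6, Il7, Ddx58, Vcam1, Lor, Fcgbp, Trpm5, Gp2, Mki67, Cdkn2a, Foxm1, Cdk1, Kif11 and Hsp90b1, and genes given as not called, were chosen after their values were seen. Some genes of the lists are counted but not reported by name here. Libraries and gene lists were chosen with earlier results of these data known.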

Additional observations from a re-analysis of the deposited data

Results flagged for a closer look

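The results given here are those of named genes whose change in mTEChi differed from that in cTECs, by the interaction term of the edgeR quasi-likelihood fit at an adjusted p under 0.05. Of 200 named genes, 69 passed, against 9.84% of all tested genes; most were named for their change in mTEChi. Each value is the log2 change in mTEChi minus that in cTECs. Among signalling and NF-kB genes, the difference was -0.80 for Otulin, 0.89 for Tnip2, 0.92 for Birc3, 0.94 for Cd40, 1.06 for Nfkbie, -3.18 for Cxcl1, 3.35 for Ltb and 1.32 for Vcam1. Among chemokine, costimulatory and Notch genes, the difference was -2.39 for Ccl5, -3.62 for Ccl6, 1.89 for Cxcl12, 0.91 for Il7, -2.85 for Cd70, -2.21 for Tnfsf9, -1.57 for Hes1 and 1.29 for Hey1. Among interferon genes, the difference was -1.69 for Isg15, -2.04 for Oas1b, 0.97 for Ddx58, 1.77 for Gbp4 and -2.09 for AW112010. Among genes of p53 signalling, mitophagy and immediate early response, the difference was -1.55 for Cdkn1a, -1.13 for Btg2, 1.91 for Trp53i11, 0.84 for Bnip3l, -2.15 for Fosb and -2.35 for Klf4. Among regulators and genes of thymic epithelium, the difference was 1.80 for Foxn1, 1.59 for Pax1, 2.64 for Ets1, 1.87 for Tbata, -2.51 for Ly6a, -2.40 for Krt14, 2.03 for Slc46a2, 1.76 for Pltp, 1.99 for Prss16, 1.67 for Psmb11, 1.54 for Ly75 and 0.96 for Enpep. Among cell cycle genes, the difference was 1.73 for Ccnb2, 2.25 for Cdc45, 2.34 for Foxm1, 2.71 for Kif11, 1.71 for Mcm3, 1.53 for Mcm4 and 1.55 for Mcm6. Among mimetic cell genes, the difference was -1.63 for Kctd12, -1.77 for Dclk1, -4.21 for Krtdap, -5.19 for Lor, -2.58 for Krt10, -4.97 for Dapl1, -3.89 for Ccdc153, -2.78 for Cfap126 and 2.79 for Atp2a1. Among ER and glycosylation genes, the difference was 1.27 for Pdia3, 0.89 for Pdia4, 0.73 for Pdia6 and 1.33 for Stt3a. Among lysosome and glycogen genes and Maged1, the difference was 1.12 for Lamp2, 1.21 for Gbe1, 1.44 for Pgm1 and 1.15 for Maged1. Among mitochondrially encoded genes and Malat1, the difference was -1.89 for COX1, -1.82 for ND1 and -2.16 for Malat1. Among genes of other cell types, the difference was 1.51 for Myh11, 2.61 for Cd3e and 2.90 for Ptcra. In Krt14, Cd40, Dclk1, Psmb11, Prss16, Ly75, Enpep, Cd3e and Ptcra the change in mTEChi itself was not called.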

How the results depend on the processing

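Of 200 named genes, 167 were called and 128 of these kept their call and direction under all 18 alternatives. With a sex term the calls of Cd86, Cdkn2a, Cldn3, Glycam1, Mki67, Rnf31, Tnfrsf11a, Tnfrsf12a and Tnfsf9 ended. Among libraries labelled male those of Birc3, Cd86, Cox4i1, Dll4, Gp2, Mki67, Nfkbia, Nfkbie, Rnf31, Tnfaip3, Tnfrsf11a, Tnfrsf12a and Tnip2 ended. With the length trend removed those of Birc3, Casp8, Cd70, Cox4i1, Cox6c, Cox8a, Gbp4, Ndufa2, Ndufa4 and Tnfrsf12a ended. The number of genes called lay between 1944 and 3116 when a single mTEChi library was left out (1170 to 1809 higher, 774 to 1307 lower), and between 2864 and 4863 otherwise. With DESeq2, 4763 genes were called and the lower count moved to 2556; with upper-quartile and relative-log-expression scaling 46.3% and 47.0% of calls were higher, against 56.8%, and the median of all genes was -0.11 with both. The cause of the moves under DESeq2 and the other scalings was not tested; leaving out a library leaves fewer samples. Same-numbered control and HOIL-deficient libraries had correlations of -0.08, -0.02 and -0.06 in their deviations from group means. Differently numbered ones had correlations from -0.08 to 0.10. Deviations from means of 3 libraries cannot show whether replicate numbers pair the samples. With a replicate block 3288 genes were called, 1900 higher and 1388 lower. The ribosomal share of counts, which overlapped between groups, changed sign without control replicate 1 (-0.17 to 0.0119 percentage points, HOIL-deficient minus control, when single libraries were left out). Counts of members called, in lists with at least 5 such members, that moved by over 1.5 times in a fit not named beside them in the report were as follows. With a sex term, 3 p53 target genes were lower (5 in the report), 11 keratinized genes were lower (18 in the report), 3 keratin and immature epithelium genes were higher (5 in the report) and 3 keratin and immature epithelium genes were lower (6 in the report). With only libraries labelled male, 2 p53 target genes were lower (5 in the report), 3 MHC class II genes were higher (5 in the report), 2 Notch and Wnt genes were lower (7 in the report), 3 interferon gamma GTPase genes were higher (5 in the report), 2 keratin and immature epithelium genes were higher (5 in the report) and 3 keratin and immature epithelium genes were lower (6 in the report). With relative-log-expression or upper-quartile scaling, 3 MHC class II genes were higher (5 in the report) and 2 keratin and immature epithelium genes were higher (5 in the report). With DESeq2, 20 interferon-stimulated genes were lower (13 in the report), 11 Aire-dependent genes were lower (6 in the report), 3 keratin and immature epithelium genes were higher (5 in the report) and 11 immediate early genes were lower (5 in the report). With the length trend removed, 3 interferon gamma GTPase genes were higher (5 in the report). With limma-voom, 12 Aire-dependent genes were lower (6 in the report), 17 milk, saliva and seminal fluid genes were lower (8 in the report) and 30 keratinized genes were lower (18 in the report). With the 6 mTEChi libraries alone, 12 Aire-dependent genes were lower (6 in the report), 20 hormone genes were lower (13 in the report), 13 milk, saliva and seminal fluid genes were lower (8 in the report), 28 keratinized genes were lower (18 in the report), 11 fibroblast genes were higher (7 in the report) and 12 immediate early genes were lower (5 in the report). With a replicate block, 3 keratin and immature epithelium genes were higher (5 in the report). With no filter on low counts, 4 fibroblast genes were higher (7 in the report). Genes that were not called changed sign in some settings, with log2 changes as follows. Ccl21a was at 0.17 with a sex term and 0.13 with the length trend removed. Col1a1 lay between -0.12 and 0.33 when single libraries were left out. Csn2 was at 0.16 with a sex term and 0.050 with the length trend removed. Enpep lay between -0.021 and 0.35 when single libraries were left out. Krt5 lay between -0.27 and 0.023 when single libraries were left out. Ly75 was at -0.019 with relative-log-expression scaling, -0.022 with upper-quartile scaling, -0.019 with DESeq2, -0.11 with a sex term, -0.16 with only libraries labelled male and between -0.19 and 0.30 when single libraries were left out. Pdgfra was at -1.50 with limma-voom and between -1.91 and 0.92 when single libraries were left out. Relb was at -0.013 with relative-log-expression scaling, -0.018 with upper-quartile scaling, -0.013 with DESeq2, -0.060 with the length trend removed and between -0.12 and 0.21 when single libraries were left out. Sharpin was at -0.037 with relative-log-expression scaling, -0.038 with upper-quartile scaling, -0.037 with DESeq2 and -0.013 with the length trend removed. Xbp1 lay between -0.067 and 0.24 when single libraries were left out. With 3 libraries per group no exact permutation test can go below 0.1. Counts at the lowest levels limit calls: 1.03% of the lowest decile of genes by level were higher and 3.40% lower. The sex term rests on a single female mTEChi library and a single female cTEC library, both HOIL-deficient replicate 3. The fit of libraries labelled male left out both.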

Other observations

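Gene families taken by symbol, beyond those of the report, were counted without a test over families, against 11.3% higher and 8.59% lower among all tested genes. Of 42 collagens 7 were higher (16.7%) and 1 lower (2.38%), beside the fibroblast and pericyte genes given in the report. Of 373 tested Zfp zinc finger genes 39 were higher (10.5%) and 13 lower (3.49%), and of 348 solute carriers 32 were higher (9.20%) and 15 lower (4.31%), so that neither family had more higher calls than all genes did. Of 52 keratins 3 were higher (5.77%) and 8 lower (15.4%). Of 8 apolipoproteins 4 were lower and none higher, and of 15 beta-defensins 4 were lower and none higher. Of 70 cytochrome P450 genes 7 were higher and 8 lower (11.4%), near the background. Of 5 caseins none was called by edgeR. Of 948 tested long noncoding RNAs 25 were higher (2.64%) and 66 lower (6.96%), and of 16903 protein-coding genes 2076 were higher (12.3%) and 1464 lower (8.66%).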
